A study of Mus musculus with 6 samples.

Results

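The killer lectin receptor genes are the rows of the deposited count table whose symbol starts with *Klr*, which gave 26 rows of 26100. All 26 had counts in at least 1 library, 17 had counts in all 6 libraries, and 3 were at 0 in every wild-type library. The rows comprised 11 *Klra*, 5 *Klrb*, 3 *Klrc*, 2 *Klrg* and 2 *Klri* genes and 1 each of *Klrd*, *Klre* and *Klrk*, as counted from the symbols. A further 4 *Klr* pseudogenes of the GENCODE M21 annotation were also not analysed here. RNA was sequenced from lung tissue of 6 mice given bleomycin, a DNA-damaging drug that scars the lung, through the airways and sampled at day 14. The groups were 3 wild-type mice (WT) and 3 mice with a knockout of *Clec7a* (KO), the gene of the beta-glucan receptor dectin-1, and both groups had received bleomycin. Strain, age, and whether the deletion acts in all cells are not stated in the labels, and lungs without bleomycin were not analysed here. The comparison addresses how the receptor genes of the injured lung differ without *Clec7a*.

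Killer lectin receptors are membrane proteins with a C-type lectin-like fold, found mainly on natural killer (NK) cells and on part of the T cells, and most of their genes lie together in the NK gene complex. Inhibitory members carry a tyrosine-based motif in the cell interior that recruits phosphatases, and activating members lack it and signal through partner adaptor proteins. Members of both kinds read MHC class I or related molecules, so that an NK cell weighs opposing signals from the same target. Gene content and sequence of the *Klra* group differ between inbred mouse strains. Whether both groups of mice carried the same *Klra* genes was not tested.

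Library totals were between 31052936 and 34451956 counts, and the 26 rows together had 660 to 2720 counts per library. *Clec7a* was read at 1974, 2732 and 6734 counts in WT replicates 1 to 3 and at 114, 230 and 92 counts in KO replicates 1 to 3, which goes with the labels. Both first replicates differed from the rest: Spearman correlations over the tested genes were at most 0.947 for pairs with a first replicate and at least 0.959 for the other pairs. Estimates of the members are therefore also given without both first replicates where that moves them by more than 1.5 times, and those of other genes where a single library carries much of the value. Counts of 3 libraries in a row below are always in the order of replicates 1 to 3.

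On GRCm38, 24 of the rows lay on chromosome 6 between 128609227 and 131247362, an interval of 2.64 Mb that starts with *Klrb1a* and ends with *Klra2* and that also contains *Clec7a* (129461591 to 129472779, minus strand). *Klrg1* (122270596 to 122282882) and *Klrg2* (38625693 to 38637242) lay outside it on the same chromosome, and all 26 were annotated as protein coding. Because these genes arose by duplication, the sequences of some members were compared to show what a short read can tell apart. In the longest protein-coding transcript, windows of 50 bases that were identical in a transcript of another gene made up 41.1% of *Klrc3*, 40.3% of *Klrc1*, 39.8% of *Klra10*, 38.9% of *Klrc2*, 33.1% of *Klra8* and 32.4% of *Klra9*. The share was 29.7% in *Klrb1c*, 29.0% in *Klrb1b*, 21.5% in *Klra3*, 14.7% in *Klra7* and 11.0% in *Klrb1a*, and from 0.732% to 5.83% in the other 6 rows that shared any. By contrast *Klrd1*, *Klrk1*, *Klre1*, *Klrg1*, *Klrg2*, *Klra2*, *Klra17*, *Klrb1f* and *Klrb1* shared no such window (0%). How reads that match several genes were handled is not given in the sources used here, so the values of single members that share windows are uncertain.

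The 3 *Klrc* genes are shown because they carry opposite signals: *Klrc1* encodes an inhibitory chain and *Klrc2* and *Klrc3* encode activating chains of the same receptor complex. Below is a coding stretch of 90 bases, from the GENCODE M21 transcripts, the gap-free stretch of that length with the most positions at which the aligned sequences differ. Capitals mark positions at which the 3 are not all the same.
Klrc1: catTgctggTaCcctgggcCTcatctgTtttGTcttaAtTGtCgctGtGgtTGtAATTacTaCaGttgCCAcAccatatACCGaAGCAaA
Klrc2: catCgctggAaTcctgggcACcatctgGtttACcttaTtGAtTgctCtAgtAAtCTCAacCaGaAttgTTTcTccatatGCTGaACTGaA
Klrc3: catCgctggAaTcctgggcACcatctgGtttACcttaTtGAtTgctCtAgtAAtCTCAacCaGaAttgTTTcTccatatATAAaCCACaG
In this stretch *Klrc1* differed from *Klrc2* at 32 of 90 positions, whereas *Klrc2* and *Klrc3* differed at 8 of 90. Over the aligned coding sequence, identity was 94.3% between *Klrc2* and *Klrc3*, 82.8% between *Klrc1* and *Klrc2* and 83.8% between *Klrc1* and *Klrc3*. Over whole transcripts, 38.1% of the 50-base windows of *Klrc1* occurred in *Klrc2*, as did 35.0% of those of *Klrc3*, so short reads can be ambiguous between opposite chains as well as between the activating ones.

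Mean levels of nearly all rows were higher in KO lungs. Mean CPM (counts scaled to library size) was higher in KO for 25 of the 26 rows and lower for 1, *Klrb1*, which had 5 counts in all. Summed over the family, the WT libraries were at 22.4, 20.3 and 31.9 CPM and the KO libraries at 85.9, 72.8 and 57.1 CPM, so every KO library was above every WT library. The mean was 24.9 ± 6.2 CPM over WT libraries and 71.9 ± 14.4 CPM over KO libraries (SD, n = 3 per genotype), which is a ratio of 2.89. In whole lung, more cells of a type and more RNA per cell cannot be told apart, and this holds for every level given here.

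**Figure D1:**
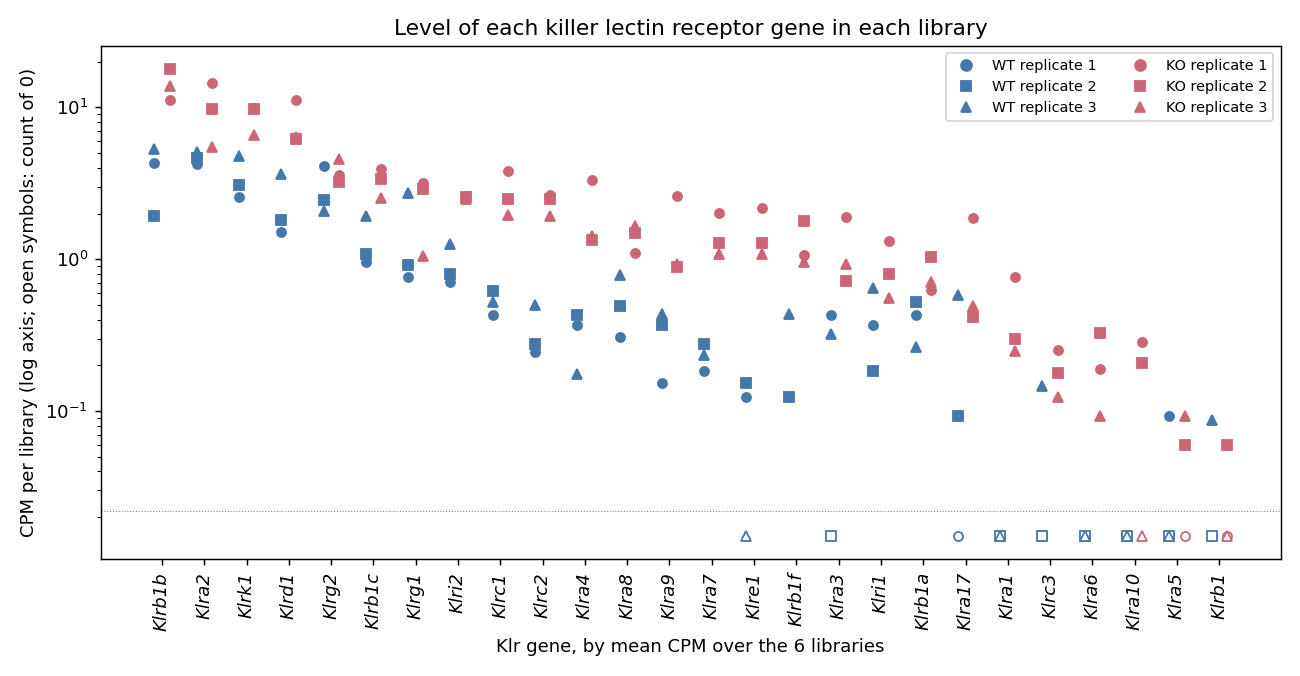
CPM of each of the 26 *Klr* genes (vertical axis, log scale) in each of the 3 WT libraries (blue) and 3 KO libraries (red), with genes in order of mean CPM and open symbols on the bottom line for a count of 0. The KO symbols lie above all WT symbols for 18 of the 26 genes, and *Klra1*, *Klra6* and *Klra10* have open symbols in all 3 WT libraries.

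The test of single genes was edgeR's quasi-likelihood test over all 16633 genes that passed its low-count filter, with Benjamini-Hochberg adjustment over all of them. It called 0 of the 20 tested *Klr* rows at an adjusted p under 0.05, against 0% of all genes, and the smallest adjusted p of a *Klr* row was 0.203. At an unadjusted p under 0.05 and higher in KO it had 14 of the 20 rows, beside 5.95% of all genes tested, and at that threshold 0 rows were lower, beside 5.89%. DESeq2 called 10 of these 20 rows higher at an adjusted p under 0.05, beside 1.91% of the genes to which it gave an adjusted p, and 0 lower, beside 1.73%. The limma-voom fit called 0 rows, and so did edgeR without both first replicates, which called 0.108% of all genes higher. All 3 KO libraries were above all 3 WT libraries in 16 of the 20 rows, beside 9.81% of all genes tested. The log2 fold change was above 1 in 17 of the 20 rows, beside 6.43% of all genes. With 3 mice against 3, an exact permutation test of a single value cannot give a 2-sided p below 0.1.

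The low-count filter bears on how these counts can be read. The filter minimum was 0.303 CPM in at least 3 libraries. Of the 20 tested rows, 11 reached it in all KO libraries but not in all WT libraries. These rows needed KO libraries to pass, which favours rows that are higher in KO. The other 9 (*Klrg2*, *Klrg1*, *Klrb1c*, *Klrb1b*, *Klrd1*, *Klrk1*, *Klrc1*, *Klri2* and *Klra2*) reached it in all WT libraries as well. These 9 had a median log2 fold change (always KO minus WT) of 1.32, and 7 of them had KO libraries that were all above WT. The 6 rows that were not tested held few reads, and the 20 tested rows had 98.8% of all *Klr* counts.

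**Figure D2:**
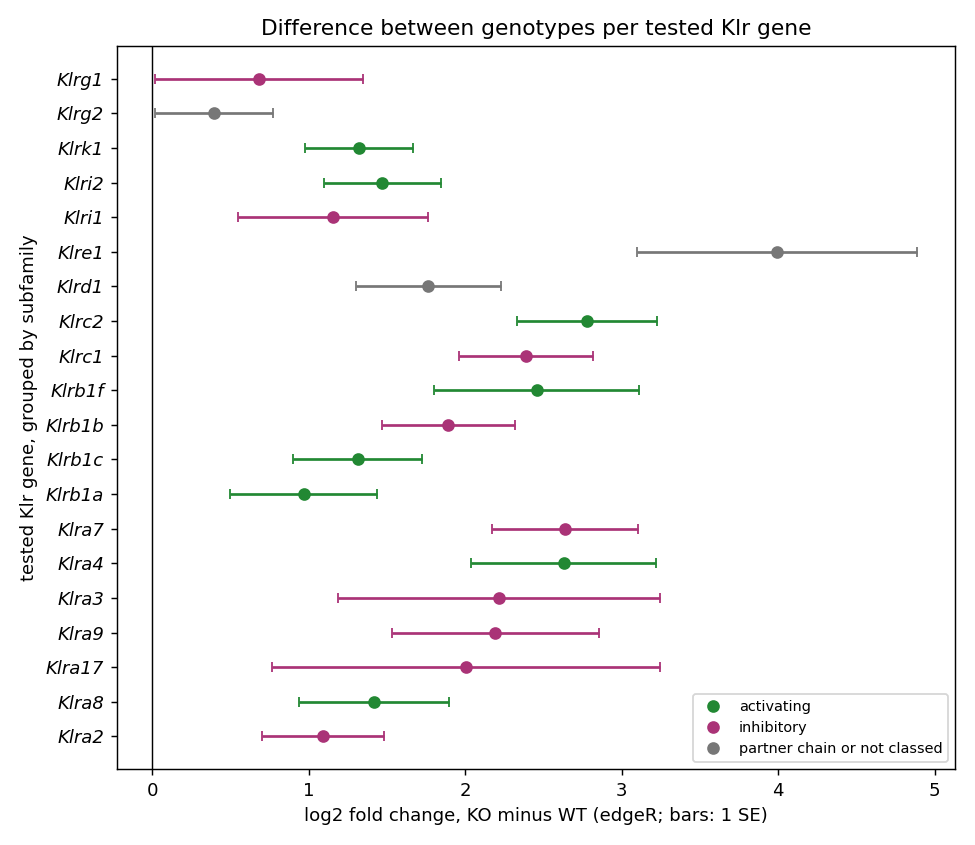
edgeR log2 fold change (KO minus WT) of the 20 tested *Klr* genes on the horizontal axis, grouped by subfamily, with bars of 1 SE and colours for activating, inhibitory and other members. All 20 estimates lie above 0, from 0.40 for *Klrg2* to 3.99 for *Klre1*. Of the 20 rows, 11 needed KO libraries to pass the low-count filter.

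The CD94 and NKG2 group included *Klrc2*, the row with the smallest p of the family (unadjusted 5.29e-04). The inhibitory chain gene *Klrc1*, whose product with CD94 reads the class Ib molecule Qa-1, had 14, 20 and 18 counts in WT and 121, 84 and 63 in KO. The KO mean was 2.76 ± 0.97 CPM (SD, n = 3), with a log2 fold change of 2.39 ± 0.43 (SE), an edgeR adjusted p of 0.203 and a DESeq2 adjusted p of 1.64e-04. All KO libraries were well above all WT libraries. *Klrc2*, an activating chain, had 8, 9 and 17 counts in WT and 84, 84 and 62 in KO. Its log2 fold change was 2.78 ± 0.45 (edgeR adjusted p 0.203, DESeq2 adjusted p 1.22e-05), and again no libraries overlapped. *Klrc3* had 0, 0 and 5 counts in WT and 8, 6 and 4 in KO and was not tested.

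The partner chain of these products is CD94, encoded by *Klrd1*, which had the highest level per length of the family in both genotypes. Its counts were 49, 59 and 125 in WT and 353, 209 and 206 in KO, with all KO libraries above WT. The log2 fold change was 1.77 ± 0.46 (edgeR adjusted p 0.268, DESeq2 adjusted p 0.0106). *Klrd1* took 69.0%, 67.0% and 75.8% of the summed counts of *Klrd1* and the 3 *Klrc* genes in WT, and 62.4%, 54.6% and 61.5% in KO. The shares of the KO libraries were thus all below those of WT. Their 95% Wilson intervals were wide at these counts (57.5% to 78.6% in WT replicate 1 and 58.3% to 66.3% in KO replicate 1) and cover counting error only. Within the pair of opposite chains, *Klrc2* took 31% to 48.6% of the *Klrc1* and *Klrc2* counts in WT and 41.0% to 50% in KO, so the balance between them overlapped.

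*Klrk1* encodes NKG2D, an activating receptor for ligands that stressed cells display. It had 84, 101 and 164 counts in WT and 313, 326 and 214 in KO, or 3.49 ± 1.15 CPM against 8.73 ± 1.85 CPM. The log2 fold change was 1.32 ± 0.35 (edgeR adjusted p 0.268, DESeq2 adjusted p 0.0157) and the libraries did not overlap. *Klre1* lies nearest to *Clec7a* of all *Klr* genes, at 105.1 kb, and its product forms receptors with those of *Klri1* or *Klri2*. It had 4, 5 and 0 counts in WT and 69, 43 and 35 in KO, and its log2 fold change of 3.99 ± 0.90 was the largest of the tested rows (edgeR adjusted p 0.234, DESeq2 adjusted p 3.69e-04). The 9 WT counts in all leave the size of this difference poorly bounded.

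Of its 2 partners, the activating *Klri2* had 23, 26 and 43 counts in WT and 83, 86 and 81 in KO, with no overlap and a log2 fold change of 1.47 ± 0.38 (edgeR adjusted p 0.258, DESeq2 adjusted p 0.0138). The inhibitory *Klri1* had 12, 6 and 22 counts in WT and 42, 27 and 18 in KO. KO replicate 3 lay below WT replicate 3 in *Klri1*, and the log2 fold change was 1.16 ± 0.61 (edgeR adjusted p 0.513, DESeq2 adjusted p 0.505), or 0.76 without KO replicate 1 and 0.72 without both first replicates.

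The *Klrb* genes encode the NKR-P1 receptors, which read C-type lectin-related ligands rather than MHC molecules. *Klrb1b*, an inhibitory receptor for the product of *Clec2d*, was the row with the most counts of the family, although 27.1% of its 50-base windows also occur in the predicted gene *Gm44511*. It had 140, 63 and 181 counts in WT and 354, 599 and 448 in KO. The KO mean was 14.3 ± 3.3 CPM, 3.72 times that of WT, with a log2 fold change of 1.89 ± 0.42 (edgeR adjusted p 0.234, DESeq2 adjusted p 0.00142). *Klrb1b* made up 52.9% to 74.1% of the *Klrb* counts in WT and 66.5% to 76.7% in KO, so its share overlapped while its level did not.

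The activating *Klrb1c* encodes NK1.1, a standard surface marker of NK cells in some strains. Its counts were 31, 35 and 66 in WT and 124, 114 and 82 in KO, with a log2 fold change of 1.31 ± 0.42 (edgeR adjusted p 0.311, DESeq2 adjusted p 0.0661). *Klrb1f*, whose product binds that of *Clec2i*, had 4, 4 and 15 counts in WT and 34, 60 and 31 in KO (log2 fold change 2.46 ± 0.65, edgeR adjusted p 0.269, DESeq2 adjusted p 0.0247). The activating *Klrb1a* had 14, 17 and 9 counts in WT and 20, 35 and 23 in KO (log2 fold change 0.97 ± 0.47, edgeR adjusted p 0.479, DESeq2 adjusted p 0.525). No libraries overlapped in these 3 genes, although the lowest KO count of *Klrb1a* was only 3 above the highest WT count. *Klrb1*, placed here with the inhibitory members, had 3 counts in WT and 2 in KO over all libraries.

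The *Klra* genes encode the Ly49 receptors, which read MHC class I on mouse cells. The activating *Klra4* (Ly49D) had 12, 14 and 6 counts in WT and 105, 45 and 46 in KO, with a log2 fold change of 2.63 ± 0.59 (edgeR adjusted p 0.234, DESeq2 adjusted p 0.00389). The inhibitory *Klra7* (Ly49G) had 6, 9 and 8 counts in WT and 64, 43 and 35 in KO, with nearly the same log2 fold change of 2.64 ± 0.47 (edgeR adjusted p 0.203, DESeq2 adjusted p 0.00107). KO libraries were above WT by a wide margin in both genes. The activating *Klra8* (Ly49H), known as a receptor for a cytomegalovirus protein, had 10, 16 and 27 counts in WT and 35, 50 and 54 in KO. Its log2 fold change was 1.42 ± 0.48 (edgeR adjusted p 0.343, DESeq2 adjusted p 0.15), with no overlap.

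Among the other inhibitory Ly49 genes, *Klra9* (Ly49I) had 5, 12 and 15 counts in WT and 83, 30 and 30 in KO. *Klra3* (Ly49C) had 14, 0 and 11 counts in WT and 60, 24 and 30 in KO. Their log2 fold changes were 2.19 ± 0.66 and 2.22 ± 1.03 (edgeR adjusted p 0.298 and 0.464, DESeq2 adjusted p 0.0593 and 0.27). KO replicate 1 was the highest library in both, and without both first replicates the estimate for *Klra9* was 1.17. These 2 genes share sequence with each other: 13.6% of the 50-base windows of *Klra9* occur in *Klra3*.

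Some *Klra* genes were read only in part of the libraries. *Klra1* (Ly49A) had 0 counts in all WT libraries and 24, 10 and 8 in KO. Its mean KO level was 14.2 times a floor of 3 counts over the 3 WT libraries, and DESeq2 gave it an adjusted p of 0.00879. *Klra6* (Ly49F), an inhibitory member, was also at 0 in WT, with 6, 11 and 3 counts in KO (6.78 times that floor, DESeq2 adjusted p 0.132). *Klra10*, a further Ly49 gene, was at 0 in WT and had 9, 7 and 0 counts in KO (5.42 times that floor), so its libraries overlapped. These ratios allow for counting error in WT only, not for counting error in KO or the spread between mice. A WT total of 0 counts allows a level of up to 0.0302 CPM, so absence from WT lungs was not shown. *Klra5*, known from fetal NK cells, had 3 counts in WT and 5 in KO over all libraries. None of these 4 rows passed edgeR's low-count filter.

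Both remaining *Klra* genes are known from myeloid cells rather than NK cells. *Klra2* (Ly49B) had 138, 151 and 173 counts in WT and 457, 329 and 177 in KO. The WT libraries were close together and the KO libraries spread widely, with KO replicate 3 only just above WT. The KO mean was 9.89 ± 4.49 CPM, with a log2 fold change of 1.09 ± 0.39 (edgeR adjusted p 0.366, DESeq2 adjusted p 0.144). It was 0.72 without KO replicate 1 and 0.66 without both first replicates. *Klra2* took 66.5% to 73.7% of all *Klra* counts in WT and 44.0% to 58.2% in KO, so that the other *Klra* genes together held a larger share in every KO library. *Klra17* (Ly49Q), known from plasmacytoid dendritic cells, had 0, 3 and 20 counts in WT and 59, 14 and 16 in KO and overlapped between the genotypes. Its log2 fold change of 2.01 ± 1.24 (edgeR adjusted p 0.577, DESeq2 adjusted p 0.517) was 0.99 when KO replicate 1 was left out, 4.21 when WT replicate 3 was, and 0.43 without both first replicates.

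The *Klrg* genes had the smallest estimates. *Klrg1*, an inhibitory receptor for cadherins found on mature NK cells and effector T cells, had 25, 30 and 94 counts in WT and 100, 98 and 34 in KO. WT replicate 3 reached the level of the higher KO libraries, and KO replicate 3 lay below it. The log2 fold change was 0.68 ± 0.67 (edgeR adjusted p 0.737, DESeq2 adjusted p 0.767), and it rested on single libraries. It reached 1.49 when WT replicate 3 was left out and 1.04 when KO replicate 3 was, but was 0.37 without WT replicate 1, 0.44 without WT replicate 2, 0.42 without KO replicate 1 and 0.12 without both first replicates. *Klrg2*, which lies 90824.3 kb from *Clec7a*, had 134, 80 and 71 counts in WT and 113, 108 and 149 in KO (log2 fold change 0.40 ± 0.38, edgeR adjusted p 0.729, DESeq2 adjusted p 0.781). Its estimate was 0.74 without WT replicate 1, 0.21 without WT replicate 3, 0.24 without KO replicate 3 and 0.79 without both first replicates. *Klrg2* made up 18.4%, 12.1% and 6.5% of all *Klr* counts in WT and 4.15%, 4.42% and 8.05% in KO, with overlap.

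By subfamily, the median log2 fold change was 2.58 over the 2 tested *Klrc* rows, 2.19 over 7 *Klra* rows, 1.60 over 4 *Klrb* rows, 1.31 over the 2 *Klri* rows and 0.54 over the 2 *Klrg* rows, beside -0.01 over all genes tested. Without both first replicates the *Klra* median was 1.3 and the *Klrb* median 1.65, in the opposite order, and the *Klrc* median was 2.24. Summed levels went from 0.91 ± 0.25 to 5.29 ± 1.38 CPM for *Klrc* (5.81-fold), from 5.82 ± 2.17 to 19.6 ± 3.9 CPM for *Klrb* (3.38-fold), from 6.55 ± 0.93 to 19.2 ± 8.3 CPM for *Klra* (2.94-fold) and from 4.36 ± 0.85 to 6.17 ± 0.54 CPM for *Klrg* (1.42-fold). Of the rows behind these medians, only *Klrc1*, *Klra2*, *Klrb1b*, *Klrb1c*, *Klri2*, *Klrg1* and *Klrg2* reached the low-count filter in all WT libraries. The other rows needed KO libraries to pass that filter, which favours rows that are higher in KO. The medians and their order are therefore partly set by the filter. Members of a subfamily are not replicates of a condition, and the differences between subfamilies were not tested.

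Summed over their rows, activating and inhibitory receptors had nearly the same ratio of KO to WT. The 9 activating rows summed to 5.71, 6.82 and 10.3 CPM in WT and to 25.5, 24.0 and 18.4 CPM in KO (ratio of means 2.98). The 14 inhibitory rows summed to 11.0, 9.04 and 15.9 CPM in WT and to 43.6, 38.1 and 26.7 CPM in KO (ratio 3.02). Of the mean inhibitory sum of 12.0 CPM in WT and 36.1 CPM in KO, *Klrb1b* held 3.84 and 14.3 CPM (ratio 3.72). The myeloid *Klra2* held 4.64 and 9.9 CPM (ratio 2.13). The inhibitory ratio thus rested largely on *Klrb1b* and *Klra2*, and the activating share in part. Within both classes no libraries overlapped. The activating share of the classed counts was 34.2%, 43.0% and 39.2% in WT and 36.9%, 38.6% and 40.8% in KO, so the KO values lay inside the WT range. Median log2 fold changes were 1.44 over 8 tested activating rows and 2.01 over 9 tested inhibitory rows. Without both first replicates they were 1.3 and 1.17, in the opposite order. Of these rows, only *Klrb1c*, *Klrk1* and *Klri2* (activating) and *Klrg1*, *Klrb1b*, *Klrc1* and *Klra2* (inhibitory) reached the low-count filter in all WT libraries. These medians are therefore also partly set by the filter. Among *Klra* genes without the myeloid *Klra2* and *Klra17*, the activating share was 44.0%, 58.8% and 49.3% in WT and 36.3%, 42.8% and 47.8% in KO, again with overlap.

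On a scale per gene length, the authors' FPKM, the order of levels in KO was led by *Klrd1* (8.82 ± 2.84 FPKM, SD, n = 3), *Klrb1b* (6.54 ± 1.66), *Klra2* (5.40 ± 2.34) and *Klrk1* (4.09 ± 1.34). Neighbours among these 4 did not differ beyond their spread. In WT the same 4 genes came first, at 2.49 ± 1.29 FPKM for *Klrd1*, 2.45 ± 0.33 for *Klra2*, 1.69 ± 0.81 for *Klrb1b* and 1.45 ± 0.53 for *Klrk1*. *Klrg2* (1.01 ± 0.34) and *Klrg1* (0.98 ± 0.76) followed in WT. *Klrc1* stood at rank 11 in WT and 8 in KO, and *Klra4* at rank 12 in WT and 6 in KO. *Klra1*, *Klra6* and *Klra10* were listed at 0 FPKM in all WT libraries.

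The tested *Klra* members all had higher estimates and lie in a row of duplicated genes, so the 250 bases before their annotated starts were compared, from the RefSeq promoter table on GRCm38.p6, which held 23 of the 26 *Klr* genes. The longest run of bases held by the largest number of *Klra* promoters had 11 bases, GCAATTTCCTC, and was found by search rather than chosen as a known site. It was present before 8 of 11 *Klra* genes, before 0 other *Klr* genes and in 17 of all 27025 genes with a promoter in the table on either strand (0.0629%). Because the search picked the run for its presence in *Klra* promoters, the high share among them was set by the search. Below are 4 of these promoters, each on the minus strand and with the run in capitals: *Klra4* and *Klra8* as activating members, *Klra6* as a member at 0 in WT and *Klra2* as the member known from myeloid cells.
Klra4, chr6:130067272-130067521: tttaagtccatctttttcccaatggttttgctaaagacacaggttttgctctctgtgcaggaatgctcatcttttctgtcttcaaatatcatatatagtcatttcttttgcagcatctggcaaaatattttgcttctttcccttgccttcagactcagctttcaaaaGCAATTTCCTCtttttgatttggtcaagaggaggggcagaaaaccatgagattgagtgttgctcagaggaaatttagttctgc
Klra8, chr6:130129899-130130148: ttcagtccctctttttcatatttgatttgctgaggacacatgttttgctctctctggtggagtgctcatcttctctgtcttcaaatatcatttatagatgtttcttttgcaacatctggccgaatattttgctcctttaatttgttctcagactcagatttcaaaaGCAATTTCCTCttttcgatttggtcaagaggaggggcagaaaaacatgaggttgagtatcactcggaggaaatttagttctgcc
Klra6, chr6:130026955-130027204: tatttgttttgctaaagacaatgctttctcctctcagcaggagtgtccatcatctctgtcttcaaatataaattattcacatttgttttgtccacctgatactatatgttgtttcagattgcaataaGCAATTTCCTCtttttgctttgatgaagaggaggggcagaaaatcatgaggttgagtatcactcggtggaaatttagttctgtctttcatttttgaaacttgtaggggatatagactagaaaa
Klra2, chr6:131247363-131247612: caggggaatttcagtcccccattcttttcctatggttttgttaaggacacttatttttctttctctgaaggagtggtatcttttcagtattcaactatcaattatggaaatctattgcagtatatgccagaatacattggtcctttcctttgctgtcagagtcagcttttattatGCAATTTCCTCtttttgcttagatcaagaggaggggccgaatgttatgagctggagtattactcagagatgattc
The run ended 72 bases before the annotated start of *Klra4*, 73 before that of *Klra8* for the start shown, 1 of the annotated ones, 112 before that of *Klra6* and 64 before that of *Klra2*. *Klra1*, *Klra7* and *Klra10* did not have these letters in the window. A match describes the letters and is not evidence of a binding site.

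Short motifs of factors known in NK cells were searched in the same windows on both strands, counting any overlap. The T-box letters AGGTGTG were found before 1 of 23 *Klr* genes (5.88% of all genes), the RUNX letters TGTGGTT before 3 (5.08%), the ETS letters CAGGAAG before 1 (12.1%), the STAT letters TTCNNNGAA before 3 (8.13%) and the TCF letters CTTTGAA before 2 (5.19%). The RUNX matches were before *Klra1*, *Klrk1* and *Klre1*, for *Klre1* before only 1 of the annotated starts.

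Markers of lymphocytes also had higher estimates in KO. The gene lists here and below are to be read beside all genes tested, of which 49% had a higher estimate. At an unadjusted edgeR p under 0.05, 5.95% of all genes were higher and 5.89% lower. DESeq2 called 1.91% of its genes higher and 1.73% lower. *Ncr1*, the gene of the receptor NKp46 that defines NK cells, had 0, 9 and 22 counts in WT and 107, 48 and 50 in KO (log2 fold change 2.77 ± 1.08, edgeR adjusted p 0.403), and its estimate was 1.69 without both first replicates. Of 17 tested NK and cytotoxic genes, *Ncr1* among them and no *Klr* gene, 0 passed edgeR, 15 had higher estimates and 2 lower, with a median of 1.15. At an unadjusted p under 0.05, 10 were higher and 2 lower, and DESeq2 called 4 higher and 2 lower. The 2 lower ones were the serpin gene *Serpinb9b* (-2.50) and the interleukin receptor gene *Il18rap* (-0.996), which also had the highest mean CPM of the list, followed by *Sh2d1b1* (1.15) and *Il2rb* (1.14). *Serpinb9b* rested on WT replicate 1, at 90.8 CPM against 21.7 and 9.02 CPM in the other WT libraries, and its estimate was -1.10 without that library. *Sh2d1b1* was at 0.71 without KO replicate 1. Summed CPM of this list was 80.9 to 146.2 in WT and 97.2 to 122.4 in KO, with overlap, since those 2 genes carried much of it. Many of these genes are also expressed by T cells.

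Each of the 15 tested T cell genes had a higher estimate, beside 49% of all genes tested, with a median of 1.49. Among these genes 0 passed edgeR, 14 were at an unadjusted p under 0.05 (5.95% of all genes) and DESeq2 called 10 (1.91%). The most abundant were *Cd4* (1.26), *Cd247* (1.60), *Cd3g* (2.00) and *Cd28* (1.43), and the list summed to 17.7, 23.3 and 36.3 CPM in WT and 66.3, 88.8 and 60.6 CPM in KO. The 23 *Klr* rows without *Klrg2*, *Klrb1b* and *Klra2*, a set chosen after the values were seen, stood at 0.552, 0.484 and 0.537 of the T cell sum in WT. In KO the ratio was 0.855, 0.473 and 0.549, so KO replicates 2 and 3 lay near the WT values and only KO replicate 1 was above them. Relative to the sum of the NK list the same rows stood at 0.0668, 0.139 and 0.230 in WT and at 0.464, 0.345 and 0.342 in KO, with every KO library above WT. The sum of the NK list includes *Serpinb9b* and *Il18rap*, both lower in KO, and the size of this gap depends on them. They held 90.8 and 23.4 of 146.2 CPM in WT replicate 1, and 6.35 and 10.6 of 122.4 CPM in KO replicate 1. The part of lymphocyte number in the difference of the receptor genes was not tested.

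**Figure D3:**
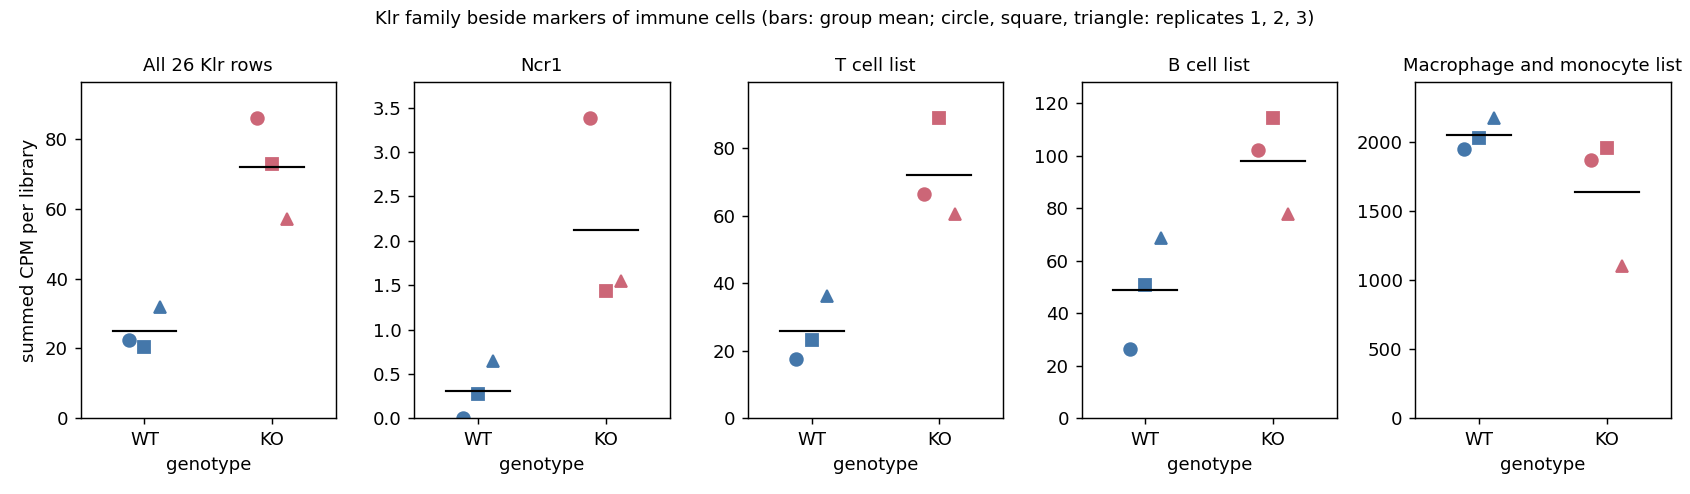
Summed CPM per library (each panel from 0, on its own scale) of the 26 *Klr* rows, *Ncr1*, and the T cell, B cell and macrophage and monocyte lists in WT (blue) and KO (red), with bars at the group means. *Klr* rows, *Ncr1*, T cell and B cell genes lie higher in all 3 KO libraries than in the 3 WT libraries, while the macrophage and monocyte sums overlap.

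Markers of other cell types had estimates in both directions. All 8 tested B cell genes had higher estimates (median 1.03, 0 past edgeR, 4 at an unadjusted p under 0.05, 2 called by DESeq2), among them *Cd22* (0.70), *Cd79b* (1.01) and *Cd79a* (0.88), with sums of 26.6 to 68.7 CPM in WT and 77.8 to 114.3 CPM in KO. *Cd22* was at 0.32 without WT replicate 1 and 1.16 without WT replicate 3, and *Cd79b* at 0.54 without KO replicate 1. Of 10 plasmacytoid dendritic cell genes, led by *Tcf4* (-0.04), *Irf8* (0.41), *Bst2* (0.89) and *Irf7* (0.74), 7 had higher estimates (median 0.58, 0 past edgeR, 3 at an unadjusted p under 0.05, 0 called by DESeq2). *Bst2* was at 0.48 without KO replicate 1. The defining marker *Siglech* was at 0.49, 1.11 and 2.74 CPM in WT and 3.54, 4.46 and 5.36 CPM in KO. Over the WT libraries it had the same order as *Klra17*, but in KO it was lowest in replicate 1, where *Klra17* was highest. The part of these cells in the level of *Klra17* was not tested. The 14 macrophage and monocyte genes, led by *C1qb* (-0.60), *Mrc1* (-0.49), *C1qa* (-0.45) and *Csf1r* (-0.05), had 3 higher and 11 lower estimates with a median of -0.23 (0 past edgeR, 1 lower at an unadjusted p under 0.05, 0 called by DESeq2). Their sum was 1950 to 2170 CPM in WT and 1100 to 1956 CPM in KO, and the median was -0.03 without KO replicate 3 and -0.48 without KO replicate 1. Of 6 tested genes of gamma-delta T cells and type 2 innate lymphoid cells, led by *Rora* (-0.14), *Sox13* (0.37), *Hs3st1* (-0.10) and *Il1rl1* (-0.15), 3 estimates were higher and 3 lower, with a median of 0.14, or 0.00 to 0.35 with 1 library left out (0 past edgeR, 1 called by DESeq2, *Gata3*). *Gata3* (1.23) had all KO libraries above WT. Mean CPM over the 6 libraries was 65.5 for *Rora* and 43.1 for *Sox13*, against 6.80 for *Cd4*, the most abundant T cell gene. In the plasmacytoid list it was 224 for *Tcf4* and 2.95 for *Siglech*. The part of other cell types in the levels of *Rora*, *Sox13* and *Tcf4* was not tested. The 3 tested mast cell genes were *Cpa3* (0.75), *Mcpt4* (-1.86) and *Cma1* (0.31), with 0 past edgeR. *Mcpt4* was at -0.84 without WT replicate 1, *Cma1* was at -0.11 without WT replicate 2, and the list summed to no more than 5.56 CPM in any library.

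Signalling genes downstream of the receptors had mixed estimates, to be read beside the 49% of all genes tested that had a higher one. Of 25 tested, 17 had higher and 8 lower estimates, with a median of 0.17, or 0.02 to 0.34 with 1 library left out (0 past edgeR, 8 higher at an unadjusted p under 0.05, DESeq2 called 4). The most abundant, *Ptpn11* (-0.23), *Grb2* (0.04), *Plcg1* (0.17) and *Syk* (0.30), are used in many cell types and lay within 2 SE of 0. Adaptor genes of activating receptors, named for their role, had estimates below 0: *Tyrobp* (DAP12) had -0.38 ± 0.35 and *Hcst* (DAP10), with a WT mean of 2.35 ± 0.63 CPM and a KO mean of 1.67 ± 0.08 CPM, had -0.49 ± 0.35 (edgeR adjusted p 0.725 and 0.627). Without WT replicate 1 they were at -0.08 and -0.27. Both adaptors are also made by myeloid cells. *Cd247* (1.60), a signalling gene of T and NK cells, was called higher by DESeq2 (adjusted p 0.0022).

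Ligands of the receptors were measured in the same lungs, where 49% of all genes tested had a higher estimate in KO. Of 16 tested ligand genes, 10 had higher and 6 lower estimates, with a median of 0.34 (0 past edgeR, 4 higher and 1 lower at an unadjusted p under 0.05, DESeq2 called 2). The MHC class I genes read by Ly49 receptors were *H2-D1* (0.62), *B2m* (1.07) and *H2-K1* (0.87), and DESeq2 called *B2m* and *H2-K1* (adjusted p 0.0444 and 0.0351). *H2-T23*, which encodes the Qa-1 ligand of the CD94 and NKG2 receptors, was at 91.8, 85.2 and 96.1 CPM in WT and 154.3, 134.3 and 125.4 CPM in KO, without overlap (log2 fold change 0.60 ± 0.17, edgeR adjusted p 0.269). Of the 5 tested ligand genes of the activating receptor encoded by *Klrk1*, *Ulbp1* had -0.92 ± 0.44, *Raet1e* -1.07 ± 0.53, *Raet1d* -0.97 ± 0.55, *H60b* -0.06 ± 0.63 and *H60c* 1.43 ± 0.79, each with overlap between genotypes. *Raet1e* was at -0.41 without WT replicate 1 and *Raet1d* at -1.52 without KO replicate 1. The ligand gene *Clec2d* of *Klrb1b* had 0.32 ± 0.42, and the cadherin gene *Cdh1*, a ligand of *Klrg1*, 0.48 ± 0.43. Without WT replicate 1 these were at 0.89 and 0.95.

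Since *Clec7a* itself lies among these genes, the differences were also set out by position. Wherever they lie, 49% of all genes tested had a higher estimate. The 13 other tested genes between *Klrb1a* and *Klra2*, without *Clec7a*, had 11 higher and 2 lower estimates and a median of 0.56, or 0.49 to 1.01 with 1 library left out (0 past edgeR, 5 higher and 1 lower at an unadjusted p under 0.05, DESeq2 called 3). They ran from *Clec2e* (-2.34) to *BC035044* (2.13) and included *Cd69* (1.63). Among them were also lectin-like genes known from platelets and endothelium, such as *Clec1b* (2.01), *Olr1* (1.74) and *Clec1a* (0.90). Without KO replicate 1, *Clec1b* was at 0.97 and *Olr1* at 0.85, and *Olr1* was at 0.56 without both first replicates. *Clec1a* was at 0.52 without WT replicate 1. *Gabarapl1*, an autophagy gene at 60.4 kb from *Clec7a*, had -0.19. A list of further genes of the NK gene complex was led by *Ybx3* (-0.19), *Gabarapl1*, *Clec1a* and *Clec12a* (0.54), with 11 of 15 estimates higher and a median of 0.32. The 4 tested *Klr* rows at lower coordinates than *Clec7a*, all *Klrb* genes, ran from 0.97 to 2.46 with a median of 1.60. The 14 at higher coordinates ran from 1.09 to 3.99 with a median of 2.10. The nearest of them, *Klre1*, had the highest estimate, on 9 WT counts in all, but estimates did not fall steadily with distance. *Klrk1* at 137.5 kb had 1.32 and *Klri1* at 224.4 kb 1.16, while *Klrc2* at 174.7 kb had 2.78 and *Klra7* at 745.8 kb 2.64. Of the 18 tested *Klr* rows in the interval, 11 needed KO libraries to pass the low-count filter, which favours higher estimates among them. The most distant member of the interval, *Klra2* at 1746.4 kb, had 1.09, and *Klrg1* and *Klrg2* outside the interval had the smallest estimates of the family. The part of the targeted locus in these differences was not tested.

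**Figure D4:**
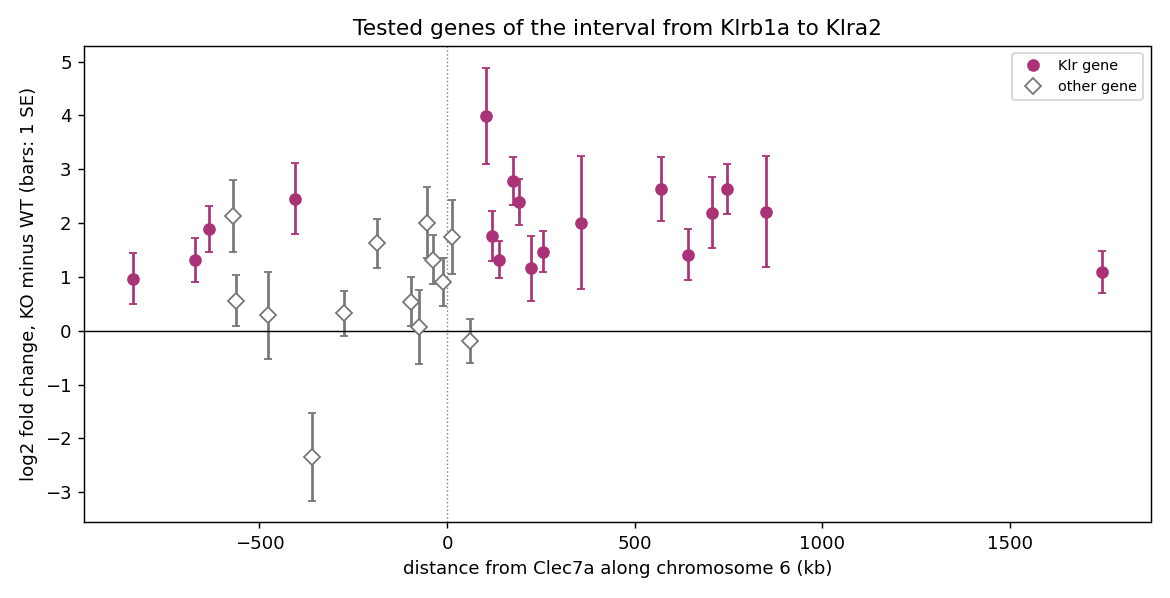
edgeR log2 fold change (KO minus WT, bars 1 SE) of the tested genes between *Klrb1a* and *Klra2* against their distance from *Clec7a* in kb, with *Klr* genes as filled circles and other genes as open diamonds. The *Klr* estimates run from 0.97 to 3.99, and the other genes run from -2.34 to 2.13. Of the 18 *Klr* rows, 11 needed KO libraries to pass the low-count filter.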

How the data were processed

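Whole-lung RNA was sequenced from 6 mice. The authors deposited whole-number counts for each gene, not normalized, and FPKM values (scaled to gene length and mapped fragments) were deposited by the authors for the same rows. HISAT2 2.0.4, StringTie 1.3.4d and GRCm38 appear in the submitters' processing notes with no role stated, and no source used here gives the strand or counting settings. The KO columns of the FPKM table were assigned to the group without replicate numbers. The design text describes separate mice, so p-values measure the spread between animals.

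Counts were tested with edgeR 4.0.16 in R 4.3.3 (filterByExpr, TMM, robust quasi-likelihood fit, genotype as the only term) over 16633 genes with Benjamini-Hochberg adjustment. Each standard error was derived from the fold change and its F statistic, so it holds no information beyond the p. DESeq2 1.42.0, limma 3.58.1, other filters, a replicate block and each library left out were alternatives. Leaving out both first replicates, and libraries for genes outside the family, was chosen after seeing the data. Scripts were tested on simulated data. Positions came from GENCODE M21. Every *Klr* row is described, and those with a mean of at least 10 counts in full. Of each of 10 gene lists, the 4 most abundant tested members were named, except for an item that is not reported here. Further genes were named for their role after the values were seen. Members, lists and classes were chosen with earlier results of these data known.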

Additional observations from a re-analysis of the deposited data

How the results depend on the processing

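The 20 tested *Klr* rows had higher estimates in KO under all alternatives in which they were fitted. That was 20 rows, or 14 with a minimum of 1 CPM and 18 in the FPKM fits. Of these rows, 11 needed KO libraries to pass the low-count filter, which favours higher estimates among them. The other 9 all had higher estimates in the main fit, beside 49% of all genes tested. Mean CPM, which needs no filter, was higher in KO for 25 of all 26 rows and lower for 1. DESeq2 called 356 genes higher and 322 lower and 11 *Klr* rows, *Klra1* included, where edgeR called 0. Medians on log2(FPKM + 1), a scale that understates low genes, were 0.78 over 18 *Klr* rows, 0.62 for activating and 0.80 for inhibitory ones. Without both first replicates, chosen after seeing the data, edgeR called 18 genes higher and 28 lower and 0 *Klr* rows, and the medians were 1.26 over the family and 1.17 for inhibitory rows. Leaving out 1 library gave 0 to 1 genes higher, 0 to 2 lower and 0 *Klr* rows called, with medians of 1.47 to 2.22 (family), 1.23 to 1.79 (activating) and 1.49 to 2.39 (inhibitory), and 11 to 14 rows at an unadjusted p under 0.05.

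Same-numbered libraries had deviations from their group means correlated at 0.351, 0.35 and -0.0988, and other pairs of a WT and a KO library at -0.512 to 0.468. With 3 libraries per genotype, these values cannot decide whether replicate numbers pair the samples. With the replicate block edgeR called 0 genes and 0 *Klr* rows, with a family median of 1.89 and 12 rows at an unadjusted p under 0.05. At 660 to 2720 *Klr* counts per library, rows with few WT counts have poorly bounded fold changes.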
